A study of Homo sapiens with 24 samples.

Results

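The HSP70 machine was described here by 10 of the 21831 genes in the tables, chosen by symbol: the chaperones HSPA1A, HSPA1B and HSPA8, the HSP110-type genes HSPA4, HSPA4L and HSPH1, the J-domain genes DNAJB1 and DNAJA1, the exchange factor BAG3, and the transcription factor HSF1. All 10 passed the filter on low counts, so all 10 were tested. HSPA1A and HSPA1B are near-identical copies and were also analysed as 1 summed gene, called the HSPA1 pair below. The study measured RNA in HBL-1 cells, an established line of human diffuse large B cell lymphoma of the activated B cell type. Cells received 20 µM dimethyl fumarate (DMF), a thiol-reactive fumarate ester, dissolved in DMSO, or DMSO without DMF as the control. RNA was taken at 6, 12, 24 and 48 h, with 3 replicates for each treatment and time and 24 libraries in all. Treated and control cultures shared the medium, RPMI-1640 with 20% fetal calf serum, and every library came from this 1 line. The labels do not say whether replicates came from separate cultures, so p-values measure the spread between these samples, which may be technical.

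HSP70 proteins bind exposed hydrophobic stretches of unfolded proteins and release them in a cycle driven by ATP. J-domain proteins such as DNAJB1 and DNAJA1 bring in clients and stimulate ATP hydrolysis, and exchange factors such as BAG3 and the HSP110 proteins remove ADP so that the client is let go. HSPA8 is the constitutive cytosolic member, HSPA1A and HSPA1B are the stress-inducible ones, and HSF1 is the factor that binds heat shock elements in their promoters when unfolded or thiol-modified proteins build up.

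Library totals ran from 2870751 expected counts in replicate 1 of DMF at 48 h, with the next lowest at 23097873, to 40906596. Replicate 3 of control and of DMF at 12 h stood apart: effective gene length weighted by counts was 1902 bases in the first and 2121 bases in the second, but 2850 to 3157 bases in all the rest. Ribosomal protein genes took up to 26.37% of counts in them and 8.75% to 13.95% elsewhere. The tests below used all 24 libraries, and values from the 22 others are given beside the counts of members and beside the member calls that change without these 2 libraries. The common dispersion, which measures the spread between replicates, was 0.0521 with 24 libraries and 0.00212 with 22. The B cell markers MS4A1, CD79A, CD79B, CD22 and PAX5 summed to 3753 to 6137 TPM (a level scaled to transcript length and library size) in control libraries and 3604 to 6312 TPM in DMF libraries. Summed markers of other cell types reached at most 0.72 TPM for T cells (4 genes), 0.22 TPM for fibroblasts (2 genes), 3.9 TPM for epithelium (2 genes), 4.14 TPM for erythroid cells (2 genes) and 11.09 TPM for monocytes (3 genes). CD3G and KRT19 were at 0 in every library, EPCAM held 0.94 to 3.9 TPM, and the monocyte sum was 2.33 to 4.67 TPM in control and 3.0 to 11.09 TPM in DMF, most of it CD68. All libraries came from the HBL-1 line, so these low sums do not show that other cells were present, and their source was not tested.

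The promoter letters that HSF1 recognises are shown before the values. A heat shock element is built from inverted repeats of GAA, and the letters searched were GAANNTTC and TTCNNGAA (2 repeat units) and GAANNTTCNNGAA or TTCNNGAANNTTC (3 units). Each pattern reads the same on the other strand except the 3-unit forms, which are each other's reverse complement, so both strands were covered. The windows were RefSeq promoters on GRCh38.p14, from 250 bases before to 50 bases after a start site. Of 35116 such windows, 13.5% held either 2-unit form and 0.49% held a 3-unit form, which always contains both 2-unit forms. Windows of 9 of the 10 members were searched, 13 windows in all, and HSF1 was left out of this search. Upstream stretches of the HSPA1 pair and of DNAJB1, and 30-base sites of HSPA8, are printed 5′ to 3′ on the gene's strand, with the matching letters in capitals. They are shown because the pair and DNAJB1 had the largest rises at 6 h, and because HSPA8 holds the longer form but changed direction with time. DNAJA1 also holds the longer form and is not printed. Both HSPA8 sites overlap annotated exons, and the DNAJB1 stretch comes from the second of its 3 listed windows.
HSPA1A (chr6:31815314-31815463, plus strand): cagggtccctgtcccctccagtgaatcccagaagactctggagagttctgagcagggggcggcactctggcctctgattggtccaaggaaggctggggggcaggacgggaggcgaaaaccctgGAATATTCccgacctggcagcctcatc
HSPA1B (chr6:31827510-31827659, plus strand): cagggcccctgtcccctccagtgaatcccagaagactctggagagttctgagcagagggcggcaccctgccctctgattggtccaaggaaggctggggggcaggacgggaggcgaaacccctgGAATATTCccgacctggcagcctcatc
DNAJB1 (chr19:14518421-14518544, minus strand): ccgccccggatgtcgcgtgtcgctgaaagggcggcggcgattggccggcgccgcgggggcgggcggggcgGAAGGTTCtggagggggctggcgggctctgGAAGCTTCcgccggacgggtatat
HSPA8, distal site (chr11:123062345-123062374, minus strand): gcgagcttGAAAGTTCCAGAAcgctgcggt
HSPA8, proximal site (chr11:123062170-123062199, minus strand): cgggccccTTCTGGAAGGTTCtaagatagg

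The HSPA1A and HSPA1B stretches were identical at 145 of 150 bases. Each held 1 match of 2 units, beginning 106 bases before the start site in HSPA1A and 105 bases before it in HSPA1B. DNAJB1 had 3 listed starts, with no match in the first window, matches beginning 77 and 47 bases before the start in the second, and a match from base 2 to base 9 after the start in the third. HSPA8 had a 3-unit match beginning 230 bases before the start and another beginning 55 bases before it. DNAJA1 had a 2-unit match beginning 198 bases before its start and a 3-unit match from base 4 to base 16 after it, and HSPA4L had a 2-unit match in 1 of 3 windows. The windows of BAG3, HSPH1 and HSPA4 held none of these letters. A match is a run of letters and not a measured binding site.

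After 6 h in DMF, 8 of the 10 members were higher than in control and none was lower at an adjusted p under 0.05, where 5.03% of the 13419 genes tested were higher and 5.59% lower. Calls and adjusted p-values, here and below unless another test is named, come from the quasi-likelihood F-test of edgeR, adjusted over all genes tested by Benjamini and Hochberg. The 8 were HSPA1A, HSPA1B, HSPA8, HSPA4, HSPH1, DNAJB1, DNAJA1 and BAG3, and the 2 without a call were HSPA4L and HSF1. Counts of members treat HSPA1A and HSPA1B as separate genes, though the split of reads between them is uncertain. The median log2 fold change was 0.60 over the 10 members and 0.00 over all genes tested. At 12 h, 7 members were higher and none lower, where 7.37% of genes were higher and 9.95% lower. At 24 h, 3 were higher and 1 was lower, against 7.81% and 6.6% of genes. At 48 h, 6 were higher and 1 was lower, against 13.3% and 12.5% of genes. The median over members was 0.47 at 12 h, 0.16 at 24 h and 0.68 at 48 h.

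With the 22 libraries, 8 members were called higher and 0 lower at 6 h, then 8 and 1 at 12 h. At 24 h the same fit called 6 higher and 2 lower, and at 48 h it called 8 higher and 2 lower. These counts stood beside much larger backgrounds: 23.8% of 13606 genes higher and 23.4% lower at 6 h, then 24.1% and 23.8% at 12 h. The shares were 29.5% higher and 27.9% lower at 24 h, and by 48 h they were 33.6% and 30.9%. A fit of the 6 libraries of 12 h alone, which include replicate 3 of both groups, called 0 members higher. The share of all genes called in that fit is not given here, so this 0 has no background beside it. The count of members higher at 24 h, with 24 libraries, fell from 3 to 1 when replicate 2 or 3 of control or replicate 1 or 2 of DMF at 24 h was left out.

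**Figure D1:**
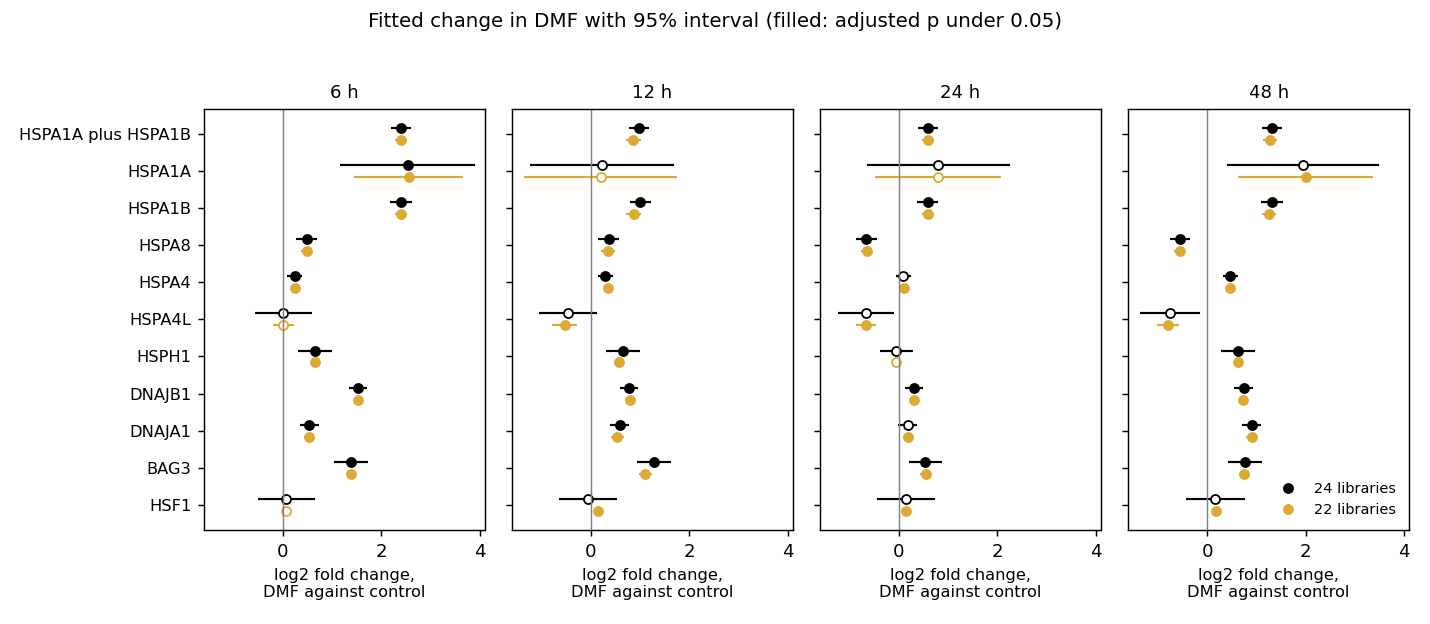
Fitted log2 fold change of each member and of the HSPA1 pair in DMF against control at 4 times, with the 95% interval as a line. Black is the fit of 24 libraries, yellow the fit of 22 without replicate 3 of 12 h, and filled points have an adjusted p under 0.05. The HSPA1 pair lies at 2.40 at 6 h, and HSPA8 moves from right of 0 at 6 and 12 h to left of it at 24 and 48 h.

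The stress-inducible HSPA1 pair had the largest rise at 6 h among the entries other than HSPA1A, which had few counts. Its 3 control libraries at 6 h held 12.8, 14.4 and 14.2 TPM and the 3 DMF libraries 65.0, 68.4 and 64.3 TPM. Every DMF library lay far above every control library, with means of 13.8 ± 0.893 and 65.9 ± 2.21 TPM (SD, n = 3). The fitted rise was 5.28-fold, a log2 fold change of 2.40 ± 0.10 (SE), with an adjusted p of 1.7e-11.

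At 12 h the pair held 9.48, 9.39 and 2.64 TPM in control and 16.9, 14.8 and 8.26 TPM in DMF, with replicate 3 the lowest of each group. The highest control library stayed below replicates 1 and 2 of DMF and above replicate 3. The fitted rise was 1.98-fold (log2 0.99 ± 0.10 SE, adjusted p = 9.8e-07), and 1.82-fold with 22 libraries (log2 0.86 ± 0.07 SE, adjusted p = 3.3e-10).

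At 24 h the values were 11.1, 10.4 and 10.3 TPM in control and 15.6, 15.6 and 14.9 TPM in DMF, again without overlap. This rise was the smallest of the 4, at 1.5-fold (log2 0.59 ± 0.10 SE, adjusted p = 0.00029). At 48 h the pair stood at 6.24, 5.32 and 6.14 TPM in control and 19.2, 16.4 and 16.8 TPM in DMF. The rise was 2.50-fold (log2 1.32 ± 0.10 SE, adjusted p = 1.4e-08). The absolute DMF level was thus far lower at 48 h, 17.4 ± 1.54 TPM, than at 6 h, while control had dropped to 5.90 ± 0.505 TPM (SD, n = 3).

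The pair's reads were assigned almost wholly to HSPA1B, which lies at chr6:31827735-31830255 on the plus strand. HSPA1A lies at chr6:31815464-31817946 on the same strand, 9788 bases away, in GENCODE v29 on GRCh38. HSPA1A received between 0% and 3.76% of the pair's expected counts in control libraries and between 0% and 3.89% in DMF libraries. The 2 zeros were replicate 1 of control and of DMF at 48 h, where 276 and 81 pair counts allow a share of up to 1.09% and 3.7%, counting error only. Of all 50-base words in the HSPA1A transcript, 72.6% also occur in HSPA1B, while HSPA8 and HSPA1B share none. The split between the copies is therefore uncertain, and the sum is the safer value.

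HSPA1B taken alone gave the same course as the pair, with log2 fold changes of 2.40, 1.003, 0.58 and 1.31 at 6, 12, 24 and 48 h, each with an adjusted p of at most 0.00056. HSPA1A rested on 0 to 86 expected counts per library. At 6 h it held 0.25, 0.29 and 0.09 TPM in control and 0.64, 0.93 and 1.56 TPM in DMF, a log2 fold change of 2.54 ± 0.65 (SE) with an adjusted p of 0.014. That call was lost without replicate 3 of control (adjusted p = 0.099) or replicate 3 of DMF (adjusted p = 0.092) at 6 h. At 48 h its log2 fold change was 1.95 ± 0.74 (SE, adjusted p = 0.06), and with 22 libraries 2.001 ± 0.66 (SE, adjusted p = 0.011). Its intervals at 12 and 24 h included 0.

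**Figure D2:**
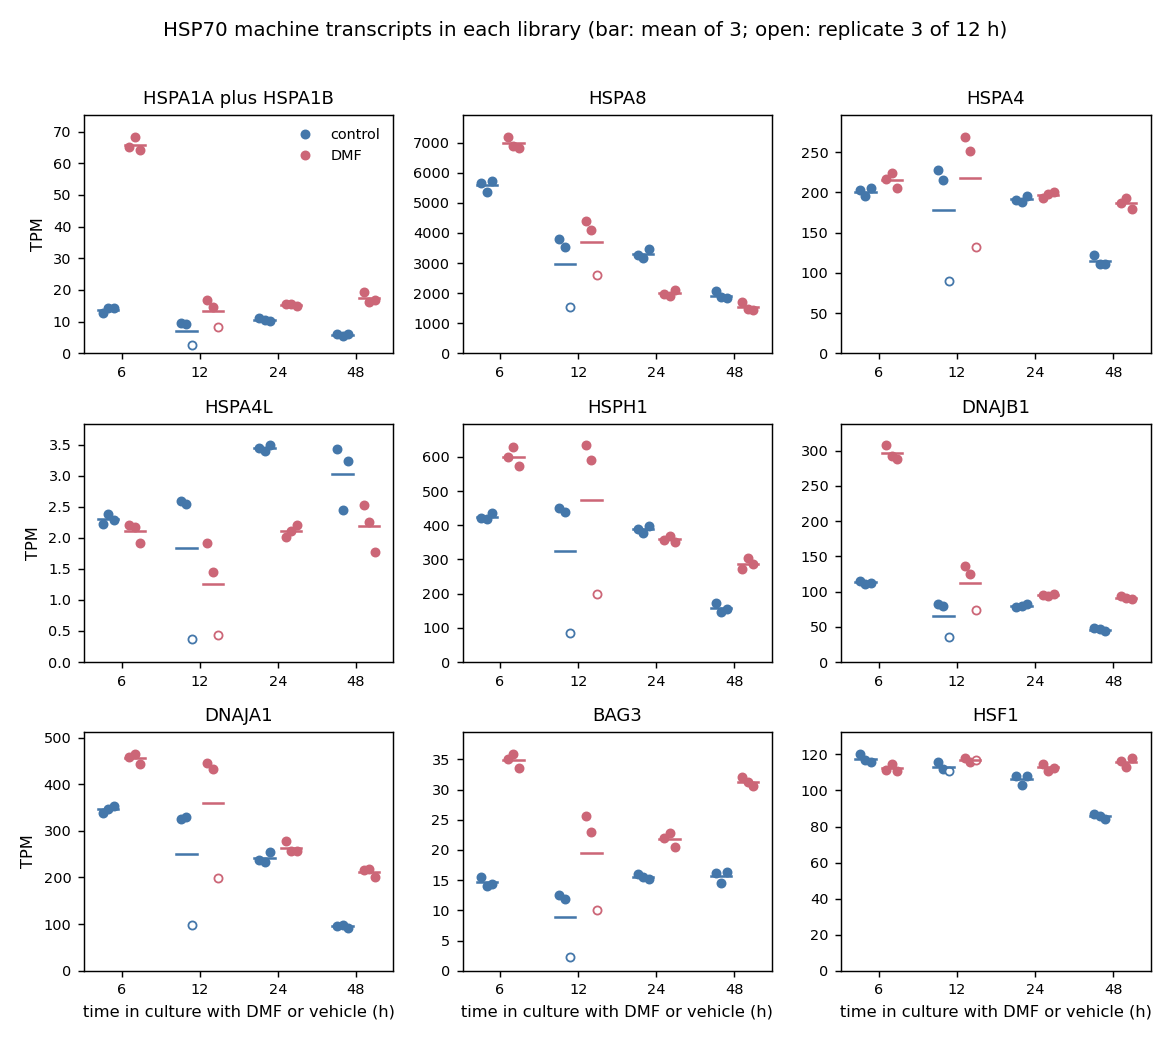
TPM of the HSPA1 pair and the 8 other members in every library at 6, 12, 24 and 48 h, with control in blue, DMF in red and bars at the mean of 3. Open points are replicate 3 of 12 h. The pair reaches 64.3 to 68.4 TPM in DMF at 6 h, and HSF1 stays between 84.2 and 120 TPM throughout.

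HSPA8, the constitutive chaperone, was the most abundant member in all 8 groups and its response changed direction. Its gene lies at chr11:123057489-123063230 on the minus strand and contains the snoRNA genes SNORD14C, SNORD14D and SNORD14E on the same strand. At 6 h it held 5644, 5376 and 5718 TPM in control and 7206, 6888 and 6840 TPM in DMF. All DMF libraries were above all controls, and the rise was 1.4-fold (log2 0.49 ± 0.10 SE, adjusted p = 0.0028). At 12 h it held 3788, 3531 and 1549 TPM in control and 4385, 4109 and 2610 TPM in DMF, with replicate 3 low in each group. The rise at 12 h was 1.29-fold with 24 libraries (log2 0.36 ± 0.10 SE, adjusted p = 0.015) and 1.27-fold with 22. It lost its call without replicate 1 (adjusted p = 0.081) or replicate 2 (adjusted p = 0.11) of the 12 h control.

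At 24 h HSPA8 held 3277, 3153 and 3452 TPM in control and 1974, 1920 and 2087 TPM in DMF. Every DMF library was now below every control, a 1.58-fold fall (log2 -0.66 ± 0.10 SE, adjusted p = 0.00013). At 48 h it held 2061, 1865 and 1831 TPM in control and 1720, 1486 and 1434 TPM in DMF. The groups again did not overlap, with a 1.47-fold fall (log2 -0.55 ± 0.10 SE, adjusted p = 0.00035). Replicates of HSPA8 agreed closely at 24 h, with SDs of 150.0 TPM in control and 85.6 TPM in DMF (n = 3).

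Inducible and constitutive HSP70, which rose together at 6 and 12 h and moved in opposite directions at 24 and 48 h, were also set against each other as the pair's share of the summed HSPA1A, HSPA1B and HSPA8 TPM. In control this share was 0.226%, 0.268% and 0.247% at 6 h and 0.25%, 0.265% and 0.17% at 12 h. It was 0.338%, 0.328% and 0.298% at 24 h and 0.302%, 0.284% and 0.334% at 48 h. Control libraries thus lay between 0.17% and 0.338%. The 6 h DMF libraries stood at 0.894%, 0.984% and 0.932%, and the 12 h ones at 0.384%, 0.358% and 0.316%. With DMF for 24 h the share was 0.785%, 0.805% and 0.71%, and for 48 h it was 1.1%, 1.09% and 1.16%. Every DMF library lay above every control library of its time. At all 4 times HSPA8 remained the bulk of these transcripts, and the share was highest in DMF at 48 h, when the pair was up and HSPA8 down.

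Averaged over the 4 times, the share was 0.517 percentage points higher in DMF, and 0.514 points without replicate 3 of 12 h. The mean was 0.247% ± 0.021 in control and 0.936% ± 0.0453 in DMF at 6 h, and 0.307% ± 0.0253 and 1.12% ± 0.0352 at 48 h (SD, n = 3). The ratio of mean shares was 3.79 at 6 h, 1.54 at 12 h, 2.38 at 24 h and 3.64 at 48 h. The share combines the same libraries and genes as the fold changes above and was chosen with those known, so it is given as a description with no p.

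**Figure D3:**
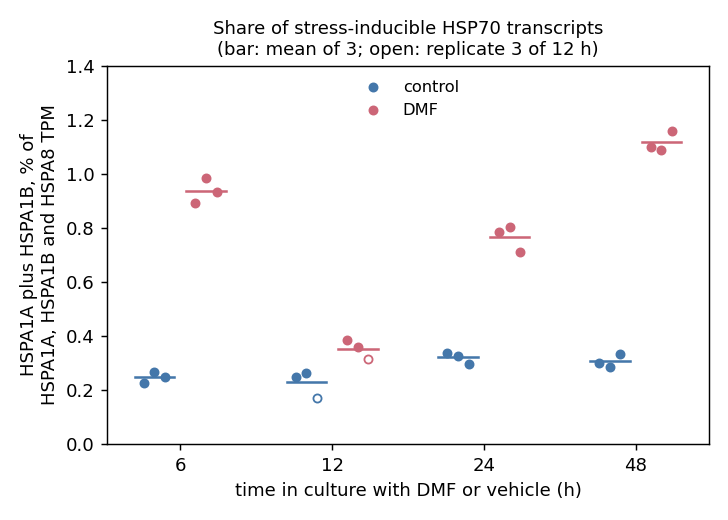
HSPA1A plus HSPA1B as a percentage of the summed HSPA1A, HSPA1B and HSPA8 TPM in each library, by time, with bars at the mean of 3 and open points for replicate 3 of 12 h. Control libraries lie between 0.17% and 0.338%, and DMF libraries between 0.316% and 1.16%.

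DNAJB1, the main J-domain partner of HSP70 in the stress response, rose at all 4 times. At 6 h it held 115, 111 and 112 TPM in control and 308, 293 and 288 TPM in DMF. The groups were far apart, with a 2.89-fold rise (log2 1.53 ± 0.09 SE, adjusted p = 1.5e-09). At 12 h the values were 81.9, 79.8 and 34.8 TPM in control and 137, 124 and 74.1 TPM in DMF. The rise was 1.71-fold (adjusted p = 5.2e-06), and 1.75-fold with 22 libraries. At 24 h control held 78.1, 79.3 and 81.9 TPM and DMF 95.6, 94.3 and 96.97 TPM, a separation of small size (1.24-fold, log2 0.31 ± 0.09 SE, adjusted p = 0.02). That call was lost on leaving out any 1 of 16 libraries, with adjusted p up to 0.18. At 48 h control held 47.8, 46.2 and 44.3 TPM and DMF 93.4, 90.3 and 89.7 TPM (1.67-fold, adjusted p = 3.7e-06). The gene lies at chr19:14514770-14529770 on the minus strand and overlaps TECR on the other strand, and no source says whether reads were counted by strand.

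DNAJA1, the other J-domain member, which works with HSPA8 on many clients, rose at 6, 12 and 48 h. At 6 h it held 339, 347 and 353 TPM in control and 458, 465 and 443 TPM in DMF (1.45-fold, log2 0.54 ± 0.09 SE, adjusted p = 0.00051). At 12 h it held 325, 330 and 97.2 TPM in control and 446, 433 and 199 TPM in DMF. The 12 h rise was 1.5-fold (adjusted p = 0.00015), and 1.45-fold with 22 libraries. At 24 h the fitted difference was 0.18 ± 0.09 (log2, SE) with an adjusted p of 0.24, and 0.18 with an adjusted p of 0.0044 with 22 libraries. At 48 h control had dropped to 96.7, 97.7 and 91.5 TPM while DMF held 216, 217 and 200 TPM, the widest gap of the 4 times (1.88-fold, log2 0.91 ± 0.09 SE, adjusted p = 4.9e-07).

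BAG3, an exchange factor that also feeds HSP70 clients to autophagy, rose at all 4 times. Its levels at 6 h were 15.6, 14 and 14.3 TPM in control and 35.1, 35.9 and 33.5 TPM in DMF. This was a 2.63-fold rise (log2 1.39 ± 0.16 SE, adjusted p = 1.1e-05) with no overlap. At 12 h it held 12.5, 11.8 and 2.22 TPM in control and 25.6, 22.9 and 10.03 TPM in DMF, where the lowest DMF library lay below 2 controls. The 12 h rise was 2.42-fold (log2 1.28 ± 0.16 SE, adjusted p = 2.1e-05), and 2.16-fold with 22 libraries. At 24 h it held 15.96, 15.5 and 15.3 TPM in control and 21.9, 22.9 and 20.6 TPM in DMF (1.45-fold, adjusted p = 0.031), a call lost without any 1 of 4 libraries of that time (adjusted p up to 0.067). At 48 h it held 16.1, 14.5 and 16.4 TPM in control and 32.04, 31.2 and 30.6 TPM in DMF (1.70-fold, log2 0.77 ± 0.16 SE, adjusted p = 0.0016). Its control level was 14.6 ± 0.837 TPM at 6 h and 15.6 ± 1.03 TPM at 48 h (SD, n = 3).

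The HSP110-type genes split. HSPH1, which encodes HSP105, an exchange factor and holdase, rose at 6, 12 and 48 h. Control at 6 h held 420, 419 and 435 TPM and DMF 601, 629 and 573 TPM (1.57-fold, log2 0.65 ± 0.16 SE, adjusted p = 0.012). At 12 h it held 452, 439 and 84.5 TPM in control and 634, 590 and 200 TPM in DMF. Its 12 h log2 fold change of 0.65 (adjusted p = 0.0086) was 0.58 with 22 libraries and 0.41 without replicate 3 of the 12 h control alone. At 24 h it held 389, 379 and 397 TPM in control and 356, 368 and 351 TPM in DMF, apart on this scale, while on the CPM scale (counts scaled to library size) the groups overlapped, at 709, 686 and 719 CPM in control and 703, 678 and 657 CPM in DMF. The log2 fold change fitted from counts was -0.05 ± 0.16 (SE, adjusted p = 0.89). At 48 h it held 172, 147 and 155 TPM in control and 273, 304 and 286 TPM in DMF, clear of each other (1.54-fold, adjusted p = 0.0076).

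HSPA4, the ubiquitous HSP110 of the cytosol, moved least among the members called. Its log2 fold change was 0.24 ± 0.07 (SE, adjusted p = 0.035) at 6 h and 0.29 ± 0.07 (SE, adjusted p = 0.0081) at 12 h. The 6 h call was lost on leaving out any 1 of 17 libraries, with adjusted p up to 0.19, and the 12 h call without replicate 1 or 2 of the 12 h control. At 24 h it was 0.09 ± 0.07 (SE, adjusted p = 0.48), or 0.10 with an adjusted p of 0.043 with 22 libraries. At 48 h HSPA4 held 122, 111 and 111 TPM in control and 187, 193 and 180 TPM in DMF. The groups were well apart, a 1.38-fold rise (log2 0.47 ± 0.07 SE, adjusted p = 7.6e-05).

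HSPA4L, a paralogue known from testis, was the least abundant member besides HSPA1A, with 48 to 291 expected counts per library outside replicate 1 of DMF at 48 h, which had 18. At 24 h it held 3.45, 3.40 and 3.49 TPM in control and 2.01, 2.11 and 2.21 TPM in DMF, without overlap. Its log2 fold change was -0.66 ± 0.27 (SE) at 24 h, with an adjusted p of 0.12. At 48 h it was -0.75 ± 0.29 (SE, adjusted p = 0.064), with 3.43, 2.44 and 3.23 TPM in control and 2.53, 2.25 and 1.77 TPM in DMF. These overlap in TPM but not in CPM, where control held 8.27, 6.55 and 7.63 and DMF 5.47, 4.65 and 3.75. No time passed the main edgeR test with 24 libraries and no replicate block, and counts of lower members under other processing are given at the end. The 48 h fall was called on leaving out any 1 of 6 libraries. Those at 12 and 24 h were called without replicate 3 of the 12 h control (adjusted p = 0.0057 and 0.0079). With 22 libraries it fell by 0.53 at 12 h (adjusted p = 0.001), by 0.66 at 24 h (adjusted p = 2.8e-06) and by 0.79 at 48 h (adjusted p = 8.2e-07) on the log2 scale. At 6 h the fitted value was 0.02 with 24 libraries and -0.09 on log2(TPM + 1), neither called.

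HSF1, which is activated mostly after translation, passed the edgeR test at no time with 24 libraries. At 6 h it held 120, 117 and 116 TPM in control and 112, 115 and 111 TPM in DMF, so TPM was lower in every DMF library, while the fitted log2 fold change from counts was 0.08 ± 0.28 (SE, adjusted p = 0.96). At 12 h the fitted value was -0.06 ± 0.28 (SE, adjusted p = 0.92) and turned to 0.15 with 22 libraries (adjusted p = 0.02) and to 0.54 without replicate 3 of the 12 h control alone (adjusted p = 0.036). At 24 and 48 h it was 0.15 and 0.17, with adjusted p of 0.81 and 0.73. With 22 libraries these were 0.15 and 0.18, with adjusted p of 0.0044 and 0.0014. At 48 h control held 87.1, 86.0 and 84.2 TPM and DMF 116, 113 and 118 TPM, a gap that limma on log2(TPM + 1) also called (0.43, adjusted p = 1.3e-05). HSF1 lies at chr8:144291591-144314722 and overlaps DGAT1 on the other strand.

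The TPM scale and the count scale were offset from each other. On log2(TPM + 1) the median gene stood at -0.10 at 6 h and 0.17 at 48 h in DMF against control, and at 0.00 and 0.02 in the count fit. Besides HSPA4L and HSF1 at 6 h and HSF1 at 12 h, no member at any time changed sign between the scales with all 24 libraries. On log2(TPM + 0.1) the medians were -0.14 at 6 h and 0.22 at 48 h. For the median gene, TPM differences thus lay below the count fit at 6 h and above it at 48 h. The gap of a single member could be wider, as for HSF1 at 48 h. Which scale is nearer the true change was not tested.

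The size of the DMF effect differed between times for 5 members in a joint test (HSPA1B, DNAJB1, HSPA8, DNAJA1 and BAG3), where 15% of all genes did so. With 22 libraries 8 members did so, where 69.1% of genes did. The adjusted p of the joint test was 3.7e-07 for the HSPA1 pair, 1.1e-05 for HSPA8, 1.7e-05 for DNAJB1, 0.004 for DNAJA1 and 0.03 for BAG3. HSPA4 and HSPH1 missed the threshold at 0.083 and 0.082, HSPA1A at 0.31, HSPA4L at 0.53 and HSF1 at 0.99.

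From 6 to 12 h the effect shrank for HSPA1B and DNAJB1, 2 of 10 members, where 0.566% of genes passed. The change was -1.41 ± 0.14 on the log2 scale for the pair (SE, adjusted p = 2.5e-05) and -0.76 ± 0.12 for DNAJB1 (SE, adjusted p = 0.0054). BAG3 changed by -0.12 ± 0.23 over the same interval (SE, adjusted p = 1.0), with a 95% interval from -0.60 to 0.36. With 22 libraries BAG3 changed by -0.28 (adjusted p = 0.019). From 6 to 24 h the effect was smaller for 4 members, BAG3, DNAJB1, HSPA1B and HSPA8, where 6.48% of genes passed. HSPA8 changed by -1.15 ± 0.14 (SE, adjusted p = 4.6e-05), the step that took it from higher to lower. From 12 to 24 h DNAJB1 and HSPA8 passed, where 5.54% of genes did. Leaving out single libraries moved that count to between 1 and 5, with 5 without replicate 2 of control or replicate 3 of DMF at 12 h and 4 without replicate 1 of the 12 h control. From 24 to 48 h the effect grew for DNAJA1 and HSPA1B, where 3.12% of genes passed, by 0.73 ± 0.13 for DNAJA1 (SE, adjusted p = 0.0028) and 0.73 ± 0.14 for the pair (SE, adjusted p = 0.0049). That count of 2 became 5 without replicate 3 of control and 4 without replicate 3 of DMF at 12 h. The count of 2 from 6 to 12 h became 1 without replicate 3 of control, replicate 1 or 3 of DMF at 6 h, or replicate 2 of DMF at 12 h.

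In the fit of 22 libraries the effect differed for 4 members from 6 to 12 h, where 14.7% of genes passed, and for 8 from 6 to 24 h, where 44.4% did. It differed for 7 members from 12 to 24 h and for 6 from 24 to 48 h, beside 39.5% and 41.2% of genes.

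The members' levels also moved with time in the control cultures. At 12 h against 6 h, 4 members were lower and 1 was higher, where 6.84% of genes were lower and 12.0% higher. Those lower were HSPA1B, HSPA8, DNAJB1 and BAG3, and the higher one was HSPA4 (log2 0.25, adjusted p = 0.027). At 24 h, 4 were lower, where 7.53% of genes were. They were HSPA1B, HSPA8, DNAJB1 and DNAJA1. At 48 h, 6 were lower, where 20.4% of genes were. DNAJA1 fell by 1.78 ± 0.09 (SE, log2, adjusted p = 4.7e-11), HSPA8 by 1.46 ± 0.10, HSPH1 by 1.34 ± 0.17, DNAJB1 by 1.22 ± 0.09, HSPA1B by 1.16 ± 0.10 and HSPA4 by 0.74 ± 0.07 (SE, each adjusted p at most 2.7e-06). In the fit of 22 libraries 4 members were lower and 1 higher at 12 h (18.5% and 21.1% of genes), 7 lower and 1 higher at 24 h (27.7% and 28.8%), and 7 lower and 2 higher at 48 h (36.8% and 38.2%). The 12 h count of 5 depended on single libraries, with 2 members called without replicate 1 or 3 of the 6 h control. Each DMF effect is measured against the control of its own time, so the rises at 48 h stand on a lower control level than those at 6 h. In bulk RNA, fewer cells of a kind and less RNA per cell cannot be told apart.

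In TPM, which is per transcript length, HSPA8 ranked first and HSPA4L last of the 9 entries in each of the 8 groups, counting the pair as 1 entry. HSPH1 stood at rank 2 in every group, from 158 ± 12.8 TPM in control at 48 h to 601 ± 28.2 TPM in DMF at 6 h (SD, n = 3). In control at 6 h the order below it was DNAJA1, HSPA4, HSF1, DNAJB1, BAG3 and the pair. BAG3 and the pair, at 14.6 ± 0.837 and 13.8 ± 0.893 TPM (SD, n = 3), overlapped between libraries there, and every other pair of neighbours was apart. In DMF at 6 h, DNAJB1 had moved to rank 4, above HSPA4 and HSF1, and the pair to rank 7, above BAG3, with no neighbours overlapping. At 12 h several neighbours overlapped when replicate 3 was counted. DNAJA1, above HSPA4 in control at 6 h, stood below it in control at 48 h, at 95.3 ± 3.34 against 115 ± 6.14 TPM (SD, n = 3).

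Other genes of the network were counted by list, and each count stands beside the shares of all genes given above. With 24 libraries, 5.03%, 7.37%, 7.81% and 13.3% of genes were higher at 6, 12, 24 and 48 h and 5.59%, 9.95%, 6.6% and 12.5% lower. With 22, the shares were 23.8%, 24.1%, 29.5% and 33.6% higher and 23.4%, 23.8%, 27.9% and 30.9% lower. Among 11 other HSP70 and HSP110 family genes, 2 were higher at 6 h, 1 at 12 h, 0 at 24 h and 3 at 48 h, and none was lower at any time. The 22 libraries gave 7, 5, 2 and 6 higher at the 4 times, with 0, 1, 1 and 1 lower. HSPA5, the HSP70 of the endoplasmic reticulum, rose 1.52-fold at 6 h (adjusted p = 8e-06) and 1.88-fold at 48 h (adjusted p = 1.8e-08), from 138 ± 6.90 to 305 ± 2.33 TPM at 48 h (SD, n = 3). HYOU1, its HSP110-type partner, rose 1.95-fold at 48 h (adjusted p = 0.0028). HSPA6, a strictly inducible cytosolic member, rose from 0.12 ± 0.026 to 0.85 ± 0.217 TPM at 6 h (SD, n = 3; 7.46-fold, adjusted p = 0.00019), and its near-identical relative HSPA7 could share its reads. At 48 h the means of HSPA6 were 0.30 TPM in control and 0.10 TPM in DMF, a log2 fold change of -1.36 (adjusted p = 0.057). With 22 libraries that fall was called (-1.335, adjusted p = 0.025). HSPA9, the mitochondrial HSP70, had log2 fold changes between -0.22 and 0.37 and no call with 24 libraries. With the 22 it was called higher at 6 h (0.31, adjusted p = 5.1e-08), 12 h (0.30, adjusted p = 2.8e-06) and 48 h (0.16, adjusted p = 0.00055) and lower at 24 h (-0.21, adjusted p = 1.1e-05). HSPA1L, a cytosolic member best known from testis, was called at 48 h (log2 2.08, adjusted p = 0.0086) at levels of at most 0.51 TPM, and not without replicate 3 of DMF at 48 h (1.28, adjusted p = 0.2) or replicate 2 of control at 48 h (adjusted p = 0.051).

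Of 47 other J-domain genes, 40 were tested, and 8 were higher at 6 h, 10 at 12 h, 4 at 24 h and 9 at 48 h. Lower were 1 at 6 h, 0 at 12 h, 2 at 24 h and 2 at 48 h. With the 22 libraries, 41 were tested, of which 20, 20, 17 and 20 were higher and 6, 9, 8 and 4 lower. DNAJB4, the closest relative of DNAJB1 in this list, rose from 2.46 ± 0.15 to 11.1 ± 0.522 TPM at 6 h (SD, n = 3; 5.01-fold, adjusted p = 7.2e-05) and stayed called at each later time. DNAJB11, the J-domain partner of HSPA5, was also called at all 4 times and rose 2.10-fold at 48 h (adjusted p = 6.1e-06). Its calls at 6, 12 and 24 h were lost without any 1 of 18, 2 and 16 libraries (adjusted p up to 0.17, 0.1 and 0.23). DNAJA4 rose 1.68-fold at 6 h (adjusted p = 0.00017). The 24 h call of DNAJB4 was lost without any 1 of 3 libraries and its 48 h call without any 1 of 6, with adjusted p up to 0.092. The list's median log2 fold change was 0.12 at 6 h and 0.17 at 48 h, beside 0.00 and 0.02 over all genes.

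Among 9 other exchange factor genes, 1 was higher at 6 h and 1 at 12 h, and 1 was lower at 24 h and 1 at 48 h. BAG2 was the one higher, at 1.39-fold at 6 h (adjusted p = 0.0023) and 1.34-fold at 12 h (adjusted p = 0.0041). GRPEL2, a mitochondrial exchange factor, was the one lower, by 0.48 at 24 h (adjusted p = 0.013) and by 0.61 at 48 h (adjusted p = 0.0014) on the log2 scale. SIL1 had no call with 24 libraries, but its groups were apart in CPM at 24 and 48 h. At 24 h it held 21.1, 20.7 and 19.7 CPM in control and 35.1, 33.8 and 35.4 CPM in DMF. At 48 h it held 24.7, 28.9 and 26.6 CPM in control and 46.2, 39.2 and 39.7 CPM in DMF. The 12 h control libraries held 15.2, 16.4 and 65.9 CPM of SIL1, with replicate 3 the highest. With the 22 libraries 5, 6, 2 and 4 of this list were higher and 1, 0, 4 and 3 lower.

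Of 7 genes that pass clients on or tag them, 6 were tested, and 3, 4, 0 and 2 were higher at 6, 12, 24 and 48 h, with 1 lower at 48 h. With the 22 libraries 5, 5, 3 and 4 were higher and 0, 0, 1 and 1 lower. HSP90AA1, the inducible cytosolic HSP90, rose 1.62-fold at 6 h (adjusted p = 0.032, lost on leaving out any 1 of 3 libraries), 1.88-fold at 12 h (adjusted p = 0.004) and 2.02-fold at 48 h (adjusted p = 0.001). Its 48 h levels were 266 ± 15.003 TPM in control and 633 ± 31.3 TPM in DMF (SD, n = 3). HSP90AB1, the constitutive form, rose 1.48-fold at 12 h (adjusted p = 0.004) and fell by 0.36 on the log2 scale at 48 h (adjusted p = 0.046, lost on leaving out any 1 of 8 libraries). STIP1, which links HSP70 to HSP90, rose at 6, 12 and 48 h, by 1.49-fold at 48 h (adjusted p = 0.0003), and its 6 h call was lost on leaving out any 1 of 5 libraries (adjusted p up to 0.096). ST13, which holds HSP70 in its ADP state, rose 1.28-fold at 6 h (adjusted p = 0.0014) and 1.35-fold at 12 h (adjusted p = 0.00015). The 12 h value of HSP90AB1, a log2 fold change of 0.56, was 0.37 without replicate 3 of the 12 h control.

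Of 5 other heat shock factor genes and regulators, 4 were tested, and 0 were called at any time with 24 libraries. HSF2, HSF4, HSF5 and HSBP1 had adjusted p-values of 0.1 or more throughout. With the 22 libraries 1, 1, 2 and 1 were higher and 0, 0, 1 and 1 lower. HSBP1 was higher at all 4 times in that fit (log2 0.21, 0.32, 0.48 and 0.27, adjusted p = 0.0015, 0.00014, 1.8e-08 and 0.00018). HSF4 was higher at 24 h (0.81, adjusted p = 0.00031). HSF2 was lower at 24 h (-0.20, adjusted p = 0.0036) and 48 h (-0.23, adjusted p = 0.002).

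**Figure D4:**
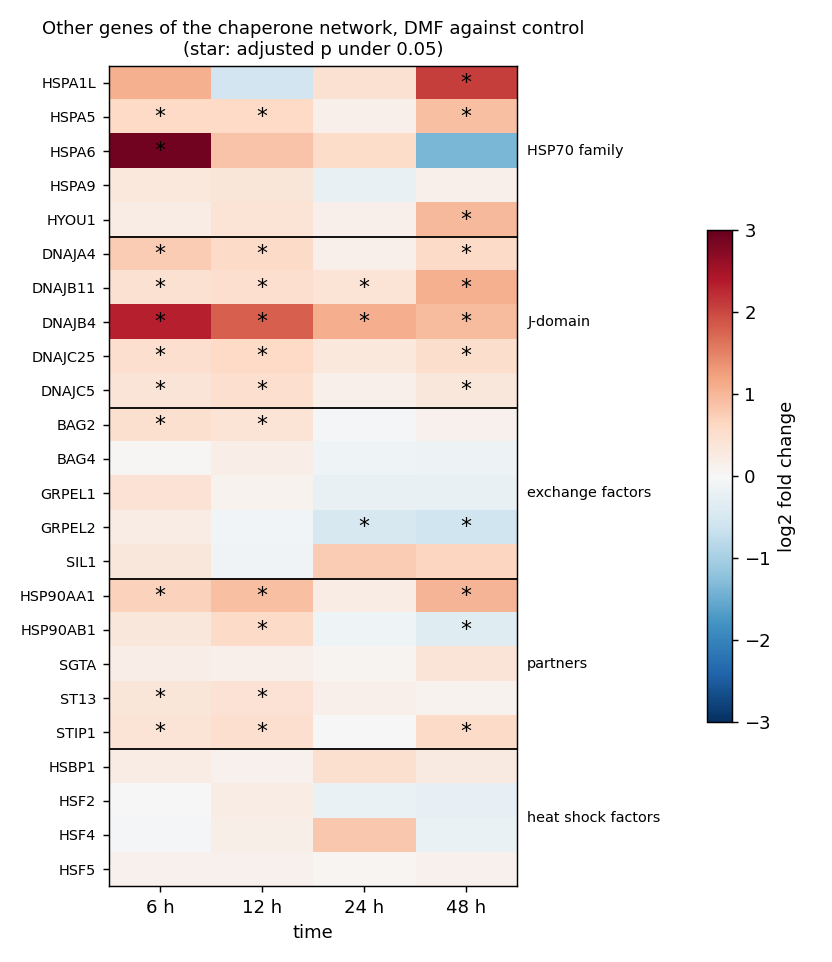
Fitted log2 fold change in DMF against control at 6, 12, 24 and 48 h (24 libraries) for up to 5 genes of each of 5 lists, red higher and blue lower, with a star where the adjusted p was under 0.05. DNAJB4 and DNAJB11 carry a star at all 4 times, HSPA6 at 6 h, and none of the 4 heat shock factor genes carries one.

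Profiles over libraries gave a further description, with Pearson's r of log2 CPM over the 22 libraries other than replicate 3 of 12 h. Libraries of one time or treatment share their condition, so r is a description with no test. Among members the HSPA1 pair was most like DNAJB1 (r = 0.961), then BAG3 (0.816), DNAJA1 (0.728) and HSPH1 (0.711), and its r with HSPA4L was -0.43. HSPA4 ran with HSPH1 (0.967), DNAJA1 (0.963) and HSF1 (0.937). HSPA8 was most like HSPH1 (0.799), and its r with BAG3 was 0.139.

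Outside the members, the 5 genes most like the pair among the 13409 compared were KLHL42, TNKS1BP1, MGLL, M6PR and ADIPOR2, with r from 0.941 to 0.955 over 22 libraries and 0.667 to 0.952 over 24. Those most like HSPA8 were KHSRP, RBM39, CKAP2, SEH1L and CCNB1, from 0.979 to 0.988 over 22 libraries and 0.605 to 0.971 over 24. HSPA4 was most like PSMD12, GTPBP4, PSMD1, STIP1 and RIOX2, at 0.981 to 0.989 over 22 libraries and 0.943 to 0.984 over 24. HSF1 was most like RPS19BP1, ADRM1, MAD2L1BP, NTMT1 and LRRC47, at 0.967 to 0.979 over 22 libraries and 0.522 to 0.99 over 24.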

How the data were processed

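RNA-seq of 24 HBL-1 libraries was analysed. Per the submitters' processing notes, the tools were RSEM, HISAT and HISAT2 and the build was GRCh38.p12. Versions and strand were not given in the sources used here. The deposited tables held RSEM expected counts (estimated reads per gene, 6.16% to 11.53% of them not whole), and the authors' TPM values, which correct for effective transcript length and for library size. Effective gene lengths in bases were used as deposited. Expected counts were rounded, filtered with filterByExpr (13419 of 21831 genes kept), scaled by TMM and fitted in edgeR 4.0.16 (R 4.3.3) with 8 group means, and calls needed a Benjamini-Hochberg adjusted p under 0.05 over all genes tested. For the HSPA1 pair, 1 summed row replaced both genes. The standard error is the log2 fold change divided by the root of F. DESeq2 1.42.0 and limma 3.58.1 on log2(TPM + 1) served as alternatives, and the fit was tested on simulated data.

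Library totals bound the precision, and intervals cover counting error and replicate spread only. Replicate numbers were not used as pairs: correlations of same-numbered deviations ran from -0.06 to 0.896, with 3 of 12 above 0.1. Those 3 were all at 12 h (0.76, 0.755 and 0.896), and the other times reached at most 0.043. Replicate pairs differed by more than sampling noise (chi-square per degree of freedom at least 1.854). Members and lists were chosen with earlier results of these data known. From each list, up to 5 genes with the smallest p in the joint test of DMF over the 4 times were named. HSPA7, cell type markers and overlapping genes were named besides these. A further cell type marker is not reported here and was left out of the marker sum. Positions came from GENCODE v29 and promoter sequences from RefSeq (GRCh38.p14).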

Additional observations from a re-analysis of the deposited data

Results flagged for a closer look

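Each result here was picked out because the effect of DMF differed between the 4 times by edgeR's joint quasi-likelihood test over all genes. The spread between the largest and smallest log2 fold change was 1.81 for the HSPA1 pair (adjusted p = 3.7e-07) and 1.82 for HSPA1B alone (adjusted p = 7.2e-07), from 6 h to 24 h. It was 1.22 for DNAJB1 (adjusted p = 1.7e-05) and 0.86 for BAG3 (adjusted p = 0.03), over the same times. HSPA8 spanned 1.15 (adjusted p = 1.1e-05), with a change of sign. DNAJA1 spanned 0.73 (adjusted p = 0.004), from 24 h to 48 h.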

How the results depend on the processing

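The 22 libraries gave 1 member lower at 12 h, 6 higher and 2 lower at 24 h and 2 lower at 48 h. Effects differed between times for 8 members in that fit (69.1% of all genes), for 4 between 6 and 12 h (14.7%), 8 between 6 and 24 h (44.4%), 7 between 12 and 24 h (39.5%) and 6 between 24 and 48 h (41.2%), and 8 changed in control at 24 h (27.7% of genes lower, 28.8% higher). With only the groups compared, 0 members were higher at 12 h, 6 higher and 2 lower at 24 h, and 2 lower at 48 h. Differences between times then held for 0 (6 and 12 h), 8 (6 and 24 h), 0 (12 and 24 h) and 6 (24 and 48 h), control changes for 0 at 12 h and 8 at 24 h, and the pair at 12 h kept 0.99 without a call (adjusted p = 0.21). The joint test has no such fit. Limma on log2(TPM + 1) called 3 members higher at 6 h, 1 at 12 h and 0 at 24 h, and 0 lower at 24 and 48 h; with a pseudocount of 0.1 it called 2, 1 and 0 higher and 0 lower. The pair on these scales was 0.91 (adjusted p = 0.062) and 1.03 (adjusted p = 0.063) at 12 h, and 0.50 (adjusted p = 0.41) and 0.53 (adjusted p = 0.49) at 24 h. Effects differed between times for 2 and 1 members, for 0 and 0 between 6 and 12 h, 2 and 1 between 6 and 24 h, 0 and 0 between 12 and 24 h, and 1 and 1 between 24 and 48 h, and members changing in control numbered 3 and 3 by 12 h, 1 and 1 by 24 h. DESeq2 called 2 lower at 24 h and 2 at 48 h, 6 differing between 12 and 24 h and 4 between 24 and 48 h. DESeq2 size factors gave 2 lower at 48 h and 4 differing between 12 and 24 h, and no filter gave 1 there and 3 control changes at 12 h. Shares of all genes called are given only for the fits of 24 and 22 libraries. Counts of members under any other setting therefore have no background beside them. The cause of these shifts was not tested.

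With the replicate block, 2 members were lower at 48 h in place of 1 (HSPA4L joined, adjusted p = 0.047), no other call of a member changed, and the share difference stayed 0.517 points. Same-numbered libraries correlated best with each other in 7 of 12 pairs, a hint from the data and not the design. The block takes replicate effects shared by all times, so it does not cover a link present at 12 h only. Sign changes were limited to values without a call in the main fit. HSPA4L at 6 h was -0.088 and -0.123, and HSF1 at 6 h -0.065 and -0.065, on the 2 TPM scales, while HSF1 at 12 h was 0.051 and 0.052 on them and 0.153 with 22 libraries.

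Leaving out single libraries gave 6 to 8 members higher at 6 h, 5 to 8 higher and 0 to 1 lower at 12 h, 1 to 3 higher and 1 to 2 lower at 24 h, and 6 to 7 higher and 1 to 2 lower at 48 h. The count differing between times ran from 4 to 7, between 6 and 12 h from 1 to 2, between 6 and 24 h from 3 to 6, between 12 and 24 h from 1 to 5, and between 24 and 48 h from 2 to 5. Control changes ran from 2 to 5 at 12 h, 4 to 5 at 24 h and 6 to 7 at 48 h. The share difference stayed between 0.51 and 0.524 points. HSPA1A ran from -0.17 to 0.60 at 12 h and from -0.004 to 1.15 at 24 h, HSPA4L from -0.002 to 0.073 at 6 h, and HSF1 from -0.46 to 0.54 at 12 h. Replicate 1 of DMF at 48 h held 2870751 counts, which limits HSPA1A and HSPA4L most.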
